A study of Arabidopsis thaliana with 9 samples.

Results

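The 10 genes described here encode enzymes that make the plant hormone jasmonate and its active form in Arabidopsis thaliana. LOX2, LOX3, LOX4, AOS, AOC1 to AOC4, OPR3 and JAR1 were chosen with earlier results of these data known, and read by locus code. All 10 were found among the 33473 genes of the deposited table. The other gene lists below were chosen with the same knowledge, so shares of all genes set beside any list are a description only. RNA was sequenced from shoots of Col-0 plants that were 21 days old and had been grown at 23 °C under constant light of 50 µmol m-2 s-1. The control plants received 0 s of high light, and the other groups received 20 s or 60 s at 1000 µmol m-2 s-1 and 21 °C before being frozen in liquid nitrogen. For each exposure the labels describe 3 pools of at least 30 plants, 9 samples in all, with no transgene or mutant named for any group. The table holds 1 FPKM value (a fragment count corrected for the length of the transcript and the depth of the library) per gene and exposure, so the spread between pools is unknown and no test could be made. Higher and lower below describe the deposited values only, and whether any difference exceeds the spread between pools was not tested.

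Jasmonate is made from linolenic acid released from chloroplast membranes. In the chloroplast a 13-lipoxygenase oxygenates the fatty acid, allene oxide synthase (AOS) turns the product into an unstable allene oxide, and allene oxide cyclase (AOC) closes the ring to give 12-oxo-phytodienoic acid (OPDA). In the peroxisome OPR3 reduces OPDA, beta-oxidation shortens its side chain to jasmonic acid, and in the cytosol JAR1 joins jasmonic acid to isoleucine. The conjugate binds the receptor COI1 together with JAZ repressors, which are then degraded, and jasmonate is best known in leaves for its increase after wounding and insect feeding. Genes of its own synthesis are among the genes that jasmonate is known to induce.

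The 4 leaf markers CA1, RCA, RBCS1A and LHCB1.2 stood between 2393 and 13889 FPKM. All 5 floral markers (AP3, PI, AG, SEP1 and SEP2) and 4 of 5 root markers (EXPA7, listed at 0 throughout, COBL9, CASP1 and NRT2.1) stayed under 1 FPKM. The remaining root marker, PYK10, brought the summed root markers to 51.8 FPKM at 0 s, 67.1 FPKM at 20 s and 67.3 FPKM at 60 s. Summed over 5 vascular markers the levels were 176, 170 and 188 FPKM, and over 4 guard cell markers 112, 107 and 97.4 FPKM. All 4 guard cell markers were lower at 20 s than at 0 s, where 48.5% of genes averaging 5 FPKM or more were higher. KAT1 (6.22 and 6.07 FPKM) and GC1 were nearly level. From 20 s to 60 s 3 of the 4 (FAMA, KAT1 and MYB60) were higher, where 57.6% of those genes were, and only GC1 was lower. GC1 stood at 75.0, 74.3 and 62.0 FPKM and set the lower sum at 60 s. The summed level of 4 nuclear ribosomal RNA genes was 136 FPKM at 0 s, 1504 FPKM at 20 s and 570 FPKM at 60 s. The part of these differences in RNA makeup in the results below was not tested, and in whole shoots fewer cells of a type and less RNA per cell cannot be told apart.

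The allene oxide cyclases are close copies, so their sequences are shown first. AOC1, AOC2 and AOC3 lie side by side within 6685 bp of chromosome 3, with 1622 bp between AOC1 and AOC2 and 1334 bp between AOC2 and AOC3, while AOC4 lies on chromosome 1. The coding sequences of AOC1 and AOC2 were 90.3% identical, those of AOC1 and AOC3 81.6%, and those of AOC2 and AOC3 81.9% (mafft alignment of RefSeq TAIR10.1 models). AOC4 shared 71.1% with AOC1, 72.3% with AOC2 and 78.8% with AOC3. The 90 coding bases in which the 3 tandem copies differ least are printed here, with capitals at the 18 positions where the 4 copies are not all the same.
AOC1: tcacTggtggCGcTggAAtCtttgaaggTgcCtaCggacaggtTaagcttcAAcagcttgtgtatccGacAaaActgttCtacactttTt
AOC2: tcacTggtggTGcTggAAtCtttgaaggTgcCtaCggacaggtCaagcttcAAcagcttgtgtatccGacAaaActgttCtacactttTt
AOC3: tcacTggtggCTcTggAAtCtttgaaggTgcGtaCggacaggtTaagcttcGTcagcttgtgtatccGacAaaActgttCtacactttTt
AOC4: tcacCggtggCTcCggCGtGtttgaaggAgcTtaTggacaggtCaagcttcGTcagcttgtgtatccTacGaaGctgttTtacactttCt
In this stretch, bases 542 to 631 of the AOC1 coding sequence, the tandem copies differ from each other at 6 positions, AOC1 from AOC2 at 2 and AOC4 from AOC2 at 17. Over whole transcripts, 24 of the 1142 windows of 50 bases in AOC1 also occurred in another gene (AOC3), against 25 of 1611 for AOC3 and 1 of 1251 for AOC2. With 30-base windows the shares were 6.71% for AOC1, 4.11% for AOC3 and 3.78% for AOC2. For LOX2, LOX3, LOX4, AOS, AOC4, OPR3 and JAR1 the share was 0% at both lengths. LOX3 and LOX4, the other close pair, were 80.1% identical in coding sequence. Read length is not stated in the labels, and the division of reads among the 3 tandem copies remains a source of uncertainty in their separate values.

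Most of the summed transcript level of the 13-lipoxygenases came from LOX2. LOX2 (AT3G45140), the chloroplast 13-lipoxygenase known for the bulk of jasmonate made near a wound, stood at 350 FPKM at 0 s, 350 FPKM at 20 s and 392 FPKM at 60 s. Its value was level between 0 s and 20 s (log2 ratio -0.0025 on the scale of FPKM + 1, which is used for all ratios) and 1.12-fold higher at 60 s. LOX3 (AT1G17420) had 4.37, 7.23 and 5.55 FPKM, and LOX4 (AT1G72520) had 3.83, 6.89 and 4.31 FPKM. Both are 13-lipoxygenases known to act together in the fertility of the flower, and both were highest at 20 s and lower again at 60 s. LOX3 was 1.53-fold higher at 20 s than at 0 s, and LOX4 1.63-fold. At 60 s LOX3 was still 1.22-fold above its value at 0 s, and LOX4 was 1.10-fold above it.

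At 0 s the level of LOX2 was 80.2 times that of LOX3 and 91.5 times that of LOX4. At 20 s these ratios of levels were 48.4 and 50.8, and at 60 s they were 70.7 and 91.1. LOX6, the fourth 13-lipoxygenase of Arabidopsis, stood at 18.2, 21.5 and 19.5 FPKM. Of the summed level of the 4 genes, LOX2 made up 93.0% at 0 s, 90.8% at 20 s and 93.0% at 60 s. The larger ratios of LOX3 and LOX4 at 20 s moved the sum little, from 377 to 385 FPKM.

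AOS (AT5G42650), the single gene of its step, stood at 108 FPKM at 0 s, 99.9 FPKM at 20 s and 135 FPKM at 60 s. It was the lowest of the 10 at 20 s against 0 s (log2 ratio -0.11) and the highest of the 10 at 60 s against 20 s (log2 ratio 0.43, 1.35-fold). Among the 13946 genes whose mean over the exposures reached 5 FPKM, 194 had a higher ratio than AOS between 20 s and 60 s.

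AOC1 (AT3G25760) had the highest ratio of the 10 at 60 s. Its level was 13.7 FPKM at 0 s, 22.6 FPKM at 20 s and 28.4 FPKM at 60 s, which is 1.61-fold higher at 20 s and 2.00-fold higher at 60 s than at 0 s. It was the only member at least 1.5-fold higher in both comparisons, which share the 0 s value. Of the 13946 genes 1.79% were at least 1.5-fold higher at 20 s and 1.69% at 60 s, and the share at both was not computed. At 60 s 73 of these genes had a higher ratio than AOC1. AOC2 (AT3G25770), its neighbour, was far more abundant and differed less, at 107, 116 and 138 FPKM (1.08-fold and 1.28-fold). AOC3 (AT3G25780), the last of the tandem copies, followed LOX3 and LOX4, at 5.42, 9.21 and 6.33 FPKM. It was 1.59-fold higher at 20 s, and at 60 s it was 1.39-fold below its value at 20 s. AOC4 (AT1G13280) was level at 32.4, 32.9 and 34.0 FPKM.

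The cyclase copies were also summed, because reads may have been divided among the 3 tandem copies. AOC1 to AOC3 summed to 126 FPKM at 0 s, 148 FPKM at 20 s and 172 FPKM at 60 s. Their log2 ratios against 0 s were 0.22 and 0.44. With AOC4, which shared no window of 50 or 30 bases, the sum over the 4 copies was 159, 181 and 206 FPKM. Its log2 ratios against 0 s were 0.18 and 0.38. AOC2 supplied 67.6% of the sum at 0 s, 64.2% at 20 s and 66.7% at 60 s. The share of AOC1 was 8.62%, 12.5% and 13.8%, while that of AOC4 was 20.4%, 18.2% and 16.5% and that of AOC3 3.41%, 5.10% and 3.07%. The level of AOC2 was thus 7.84 times that of AOC1 at 0 s and 4.84 times at 60 s.

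**Figure D1:**
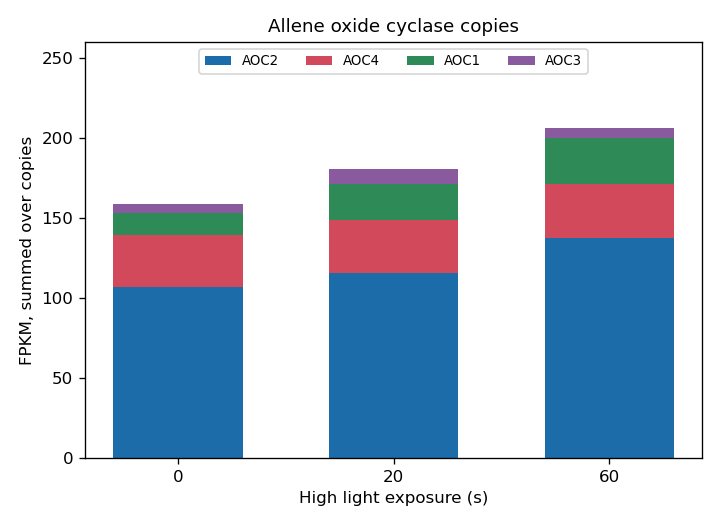
FPKM of the 4 allene oxide cyclase copies, stacked, at 0, 20 and 60 s of high light (1 deposited value per copy and exposure, no error available). The sum stands at 159, 181 and 206 FPKM, and the AOC1 segment goes from 13.7 to 28.4 FPKM.

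OPR3 and JAR1 act after the ring is closed, and their values stayed within 1.15-fold of 0 s. OPR3 (AT2G06050), the peroxisomal OPDA reductase, stood at 33.2 FPKM at 0 s, 38.3 FPKM at 20 s and 35.4 FPKM at 60 s (1.15-fold and 1.06-fold against 0 s). JAR1 (AT2G46370), which makes the active isoleucine conjugate, had 32.3, 30.1 and 31.3 FPKM. JAR1 was the only member with its highest value at 0 s, and the only one below its 0 s value at 60 s as deposited. When the columns were scaled to a common sum, AOC4 also lay below its 0 s value.

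**Figure D2:**
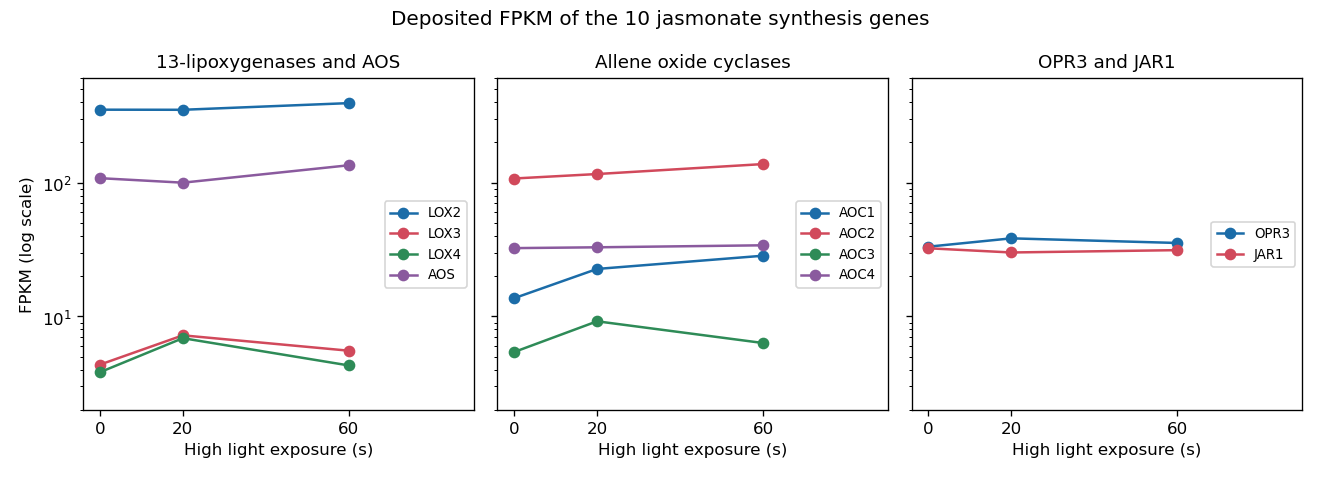
FPKM on a log axis against the seconds of high light for the 13-lipoxygenases and AOS, the allene oxide cyclases, and OPR3 with JAR1 (1 deposited value per gene and exposure). LOX3, LOX4 and AOC3 peak at 20 s between 6.89 and 9.21 FPKM, whereas LOX2, AOS and AOC2 stay near or above 100 FPKM and are highest at 60 s.

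The order of the levels at 0 s ran from LOX2 (350 FPKM) through AOS and AOC2 (108 and 107 FPKM), then OPR3, AOC4 and JAR1 (33.2, 32.4 and 32.3 FPKM) and AOC1 (13.7 FPKM) to AOC3, LOX3 and LOX4 (5.42, 4.37 and 3.83 FPKM). At 60 s AOC2 lay above AOS and the rest of the order was the same. FPKM is scaled by length, which allows these comparisons between genes. With no spread between pools, no place in this order has a known error. Least of all can the order be resolved within close groups, such as AOS with AOC2, OPR3 with AOC4 and JAR1, or AOC3 with LOX3 and LOX4. LOX2 exceeded 99.1% of all listed genes at 0 s, and LOX4 exceeded 55.7%. Only 22997 of the 33473 listed genes were above 0 FPKM at 0 s, so these shares include many genes listed at 0.

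Read as a group at 20 s, 7 of the 10 genes were higher than at 0 s and 3 (LOX2, AOS and JAR1) were lower, where 48.5% of the 13946 genes were higher. Median centring put LOX2 on the higher side, and both scaling to a common sum and quantile normalization put AOC4 on the lower side. The median log2 ratio of the 10 was 0.16, beside -0.0045 for all genes tested. Without LOX3, LOX4 and AOC3, the members with a mean under 10 FPKM, it was 0.020 and 4 of 7 genes were higher. LOX3, LOX4, AOC1 and AOC3, 4 of the 10, were at least 1.5-fold higher, where 1.79% of all genes were. These are the 4 least abundant of the 10. The 10 were chosen with earlier results of these data known, so their shares are not independent of the data. Among the 3218 genes with a mean of 5 to 10 FPKM, where LOX3, LOX4 and AOC3 lie, 2.27% were at least 1.5-fold higher and 95% had log2 ratios between -0.34 and 0.52. The ratios of the 3 genes were 0.62, 0.71 and 0.67. AOC1, at 0.69, lay above the range of -0.28 to 0.47 of the 7868 genes with a mean of 10 to 50 FPKM. No member reached 2-fold at 20 s (0.559% of all genes did), and with a pseudocount of 5 FPKM none of the 4 reached 1.5-fold. Ribosomal RNA, given above, was also highest at 20 s.

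At 60 s 9 of the 10 genes were higher than at 0 s, where 54.6% of all genes were, and the median log2 ratio was 0.18 beside 0.01. AOC1 alone was at least 1.5-fold higher, where 1.69% of all genes were. The next were AOC2 (0.36), AOS (0.32) and LOX3 (0.29 on the log2 scale), each within the middle 95% of genes of like level. In FPKM the differences between 60 s and 0 s were largest for abundant genes, with 41.9 FPKM for LOX2, 30.2 FPKM for AOC2, 26.8 FPKM for AOS and 14.8 FPKM for AOC1. The sum over all 10 genes was 691 FPKM at 0 s, 713 FPKM at 20 s and 810 FPKM at 60 s. Both comparisons use the same 0 s values and are therefore not independent. The choice of the 10 with earlier results known applies here as well.

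**Figure D3:**
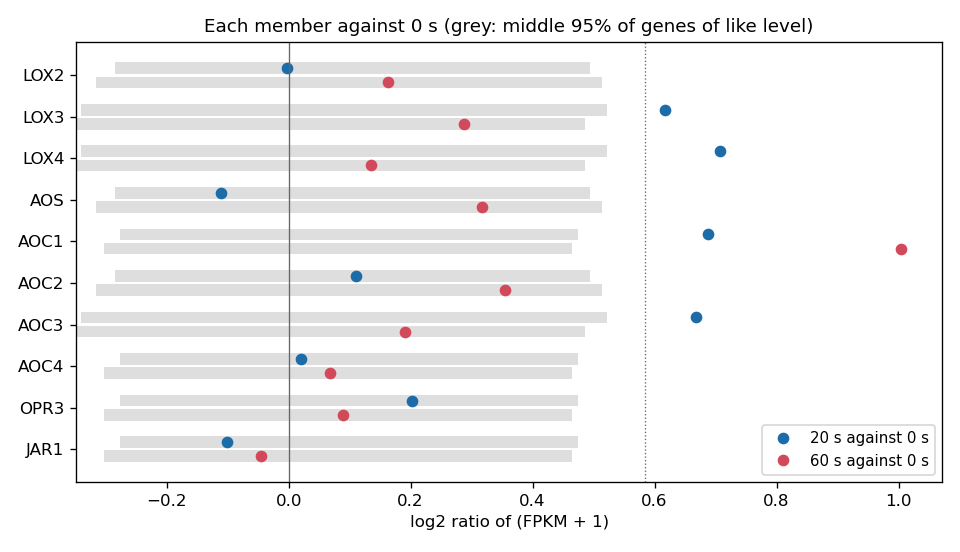
Log2 ratio of FPKM + 1 at 20 s (blue) and 60 s (red) against 0 s for each of the 10 genes, with grey bars for the middle 95% of genes of like mean level and a dotted line at 1.5-fold. LOX3, LOX4, AOC1 and AOC3 lie right of the bar at 20 s, and AOC1 alone at 60 s. The means that set the bars of LOX3 and LOX4 reach 5 FPKM only through their 20 s values.

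Between 20 s and 60 s the members went both ways. LOX2, AOS, AOC1, AOC2, AOC4 and JAR1, 6 of the 10, were higher at 60 s, where 57.6% of all genes were, and LOX3, LOX4, AOC3 and OPR3 were lower. LOX4 had the lowest log2 ratio (-0.57, 1.49-fold lower), followed by AOC3 (-0.48) and LOX3 (-0.33). No member was 1.5-fold apart in either direction, where 1.79% of all genes were, although LOX4 passed that limit under median centring, scaling to a common sum, and a pseudocount of 0.1 or 0 FPKM. LOX3, LOX4 and AOC3 are grouped here by their peak at 20 s, which by itself favours lower values at 60 s. Over the 3 exposures 5 members were highest at 60 s, 4 at 20 s and 1 at 0 s, beside 41.0%, 27.1% and 31.9% of all genes tested.

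The 3 members with their maximum at 20 s and a mean under 10 FPKM, LOX3, LOX4 and AOC3, are shown with the 300 bases before their annotated starts, because they share that maximum. Capitals mark 4 short motifs searched on both strands, namely CACGTG (the G-box bound by the jasmonate regulator MYC2), its variant CACATG, the core CGCGTT of a rapid stress response element, and TTGAC (the core of the W-box bound by WRKY factors). The sequences are from RefSeq TAIR10.1 on the plus strand, at chr1:5977023-5977322 for LOX3, chr1:27308213-27308512 for LOX4 and chr3:9408860-9409159 for AOC3.
LOX3: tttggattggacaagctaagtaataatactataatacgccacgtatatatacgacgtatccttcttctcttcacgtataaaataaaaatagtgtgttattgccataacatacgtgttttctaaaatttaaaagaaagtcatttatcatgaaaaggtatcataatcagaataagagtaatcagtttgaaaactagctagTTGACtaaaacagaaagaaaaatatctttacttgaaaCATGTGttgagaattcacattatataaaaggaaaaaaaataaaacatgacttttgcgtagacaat
LOX4: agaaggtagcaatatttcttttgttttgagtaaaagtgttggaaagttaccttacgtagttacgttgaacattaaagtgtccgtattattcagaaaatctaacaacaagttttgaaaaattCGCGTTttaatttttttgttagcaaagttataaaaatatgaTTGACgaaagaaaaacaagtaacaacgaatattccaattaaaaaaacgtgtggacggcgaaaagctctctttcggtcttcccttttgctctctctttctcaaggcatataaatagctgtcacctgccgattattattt
AOC3: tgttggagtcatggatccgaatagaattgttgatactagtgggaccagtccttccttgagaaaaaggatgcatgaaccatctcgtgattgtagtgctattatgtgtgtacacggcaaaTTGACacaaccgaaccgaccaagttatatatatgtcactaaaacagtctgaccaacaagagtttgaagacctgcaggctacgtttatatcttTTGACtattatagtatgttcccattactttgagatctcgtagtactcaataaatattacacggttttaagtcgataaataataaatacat
LOX3 holds CACATG 65 bases and TTGAC 102 bases before its start, LOX4 holds CGCGTT at 179 and TTGAC at 138, and AOC3 holds TTGAC at 182 and 90. TTGAC was thus the only one of the 4 in all 3 windows, and 50.4% of the 27443 promoters of protein-coding genes hold it as well. Of the 10 members, 6 held TTGAC, 4 held CACATG (13.1% of all promoters), 1 held CACGTG (AOS; 7.09%) and 1 held CGCGTT (LOX4; 3.08%). No motif overlapped another in the members' windows.

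The windows of AOC1 and AOC2 held none of these motifs. They are printed because these neighbours stood 2.00-fold and 1.28-fold higher at 60 s and their windows share the longest identical run among the 45 pairs of members. The run has 19 bases, is in capitals below, and was found in 2 of the 27443 promoters, those of AOC1 and AOC2. The next longest run in any pair had 11 bases, with windows compared only as read toward each gene. The windows are chr3:9403479-9403778 for AOC1 and chr3:9406369-9406668 for AOC2, both on the plus strand of TAIR10.1.
AOC1: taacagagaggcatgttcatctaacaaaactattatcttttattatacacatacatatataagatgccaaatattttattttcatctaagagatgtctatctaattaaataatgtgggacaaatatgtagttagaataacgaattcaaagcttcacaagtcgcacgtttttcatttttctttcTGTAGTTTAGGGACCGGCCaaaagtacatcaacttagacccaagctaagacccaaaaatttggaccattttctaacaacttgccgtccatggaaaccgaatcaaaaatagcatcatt
AOC2: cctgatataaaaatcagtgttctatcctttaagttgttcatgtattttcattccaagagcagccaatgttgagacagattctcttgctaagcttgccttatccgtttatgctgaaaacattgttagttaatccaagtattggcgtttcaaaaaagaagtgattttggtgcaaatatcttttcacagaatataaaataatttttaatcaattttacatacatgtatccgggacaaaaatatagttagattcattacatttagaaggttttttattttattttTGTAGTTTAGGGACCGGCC
The run begins 117 bases before the annotated start of AOC1 and 19 bases before that of AOC2. In AOC2 the run therefore ends at the edge of the window, and whether the match goes on past it was not tested. The run describes the sequence of the pair, and a match is not a site of control.

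Other genes of the route were taken from a list of lipases, desaturases, transport and beta-oxidation proteins. Of 17 listed, 13 averaged 5 FPKM or more. At 20 s 9 of these were higher and 4 lower (median log2 ratio 0.09), where 48.5% of all genes tested were higher. PLIP2, a chloroplast lipase that can release fatty acid for jasmonate synthesis, was the highest at both exposures, at 4.33 FPKM at 0 s, 10.096 FPKM at 20 s and 7.91 FPKM at 60 s. It was 2.08-fold higher at 20 s and was the only one of the 13 at least 1.5-fold higher at 20 s or at 60 s, where 1.79% and 1.69% of all genes were. The lowest at 20 s was ACX5, an acyl-CoA oxidase of beta-oxidation, at 8.484 and 8.004 FPKM. At 60 s 10 were higher and 3 lower than at 0 s (median 0.09), where 54.6% of all genes were higher, and the lowest was FAD8, a fatty acid desaturase, at 65.7 and 60.6 FPKM. The lipases DAD1 and DGL were at or under 0.1 FPKM, and PLIP3 and JMT, which methylates jasmonic acid, were under 5 FPKM.

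Related enzymes outside the route gave a comparison by enzyme class. LOX1, a 9-lipoxygenase, stood at 11.2, 12.3 and 11.7 FPKM, and OPR1, a relative of OPR3 that is not the main enzyme of jasmonate synthesis, at 33.9, 43.7 and 34.0 FPKM. HPL1 belongs to the hydroperoxide lyases, a class that draws on the same lipoxygenase product as AOS. It was at 13.07, 10.88 and 12.99 FPKM, and like AOS had its lowest value at 20 s. Whether its enzyme is active in these Col-0 plants was not tested. LOX5 and OPR2 were under 5 FPKM on average. None of LOX1, OPR1 and HPL1 was 1.5-fold apart from 0 s. Only 1.79% of all genes tested were at least 1.5-fold higher at 20 s, and 1.69% at 60 s. So short a list staying under that limit does not set these enzymes apart from the route. At 20 s OPR1 had a log2 ratio of 0.36, above the 0.20 of OPR3. At 60 s its log2 ratio was 0.0027, below the 0.09 of OPR3.

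Genes that act on or after the hormone were set beside the synthesis genes. Of 12 JAZ genes 7 averaged 5 FPKM or more, and all 7 exceeded their 0 s values both at 20 s and at 60 s (median log2 ratios 0.44 and 0.30). Of all genes tested 48.5% and 54.6% did so, with medians of -0.0045 and 0.01. The JAZ list, too, was chosen with earlier results of these data known. JAZ1 had the highest ratio at 20 s (5.98 and 11.5 FPKM) and JAZ3 at 60 s (9.35 and 16.8 FPKM), and JAZ12 (0.02 at 20 s) and JAZ11 (0.07 at 60 s) had the lowest log2 ratios. Of the 7 oxidases that break down jasmonate or its conjugate, JOX2 alone reached a mean of 5 FPKM, at 3.38, 8.52 and 7.92 FPKM, 2.17-fold higher at 20 s and 2.03-fold higher at 60 s. Among receptor and regulators, 6 of 7 were tested, and their median log2 ratio was -0.07 at 20 s and 0.07 at 60 s. MYC3 was the highest (35.2, 37.5 and 39.5 FPKM) and MYC4 the lowest (23.8, 18.0 and 20.8 FPKM) at both exposures, COI1 stood at 16.5, 15.7 and 17.4 FPKM and MYC2 at 23.7, 22.4 and 26.2 FPKM. ORA47, an activator of jasmonate synthesis genes, was under the minimum with 1.01, 2.19 and 2.85 FPKM.

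**Figure D4:**
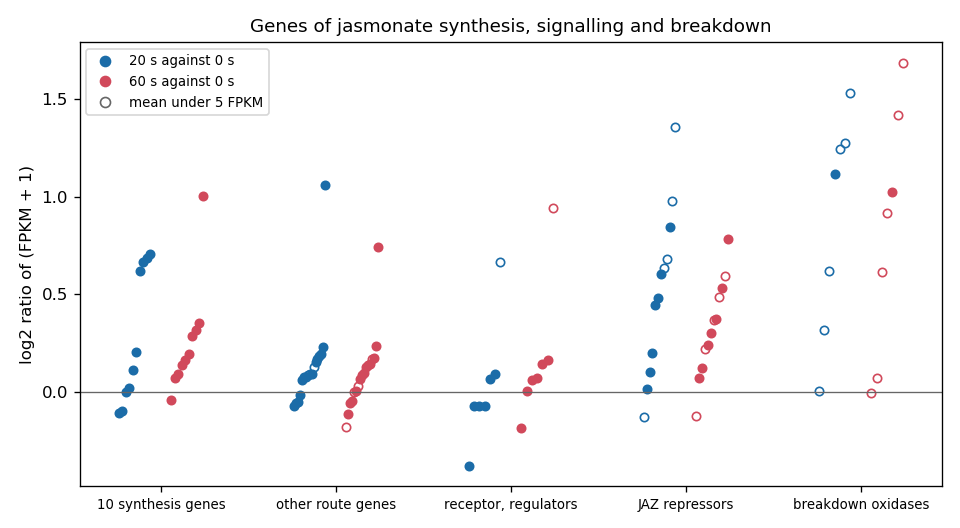
Log2 ratio of FPKM + 1 at 20 s (blue) and 60 s (red) against 0 s for the 10 synthesis genes, 17 other genes of the route, 7 receptor and regulator genes, 12 JAZ genes and 7 breakdown oxidases; each point is 1 gene and open points have a mean under 5 FPKM. PLIP2 stands apart from the other route genes at 20 s, and the breakdown oxidases reach the highest ratios, mostly as open points.

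AOC1 was the member with the highest ratio at 60 s, and the genes nearest to it were sought by the distance between their 2 log2 ratios against 0 s, over 3 exposures that share the 0 s value. The nearest 3 of the 13946 genes were AT5G49448 (7.77, 12.9 and 16.7 FPKM), AT3G49790, annotated as a carbohydrate-binding protein (10.8, 17.7 and 23.0 FPKM), and UGT74F2, a glucosyltransferase that acts on salicylic acid (9.36, 15.9 and 19.0 FPKM). Their distances were 0.02, 0.03 and 0.06 on the log2 scale. The likeness rests on 3 values per gene and is a description only.

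In the authors' coordinates, for which the submitters' processing notes name build TAIR9, AOC1 spans chromosome 3 from 9403883 to 9405250, AOC2 from 9406873 to 9407955 and AOC3 from 9409290 to 9410567. LOX2 spans chromosome 3 from 16525410 to 16529352. On chromosome 1, LOX3 spans 5977411 to 5981480, LOX4 27308515 to 27312754 and AOC4 4547454 to 4548875. AOS spans chromosome 5 from 17097595 to 17099395, and on chromosome 2 OPR3 spans 2359114 to 2362302 and JAR1 19033782 to 19036659. None of the 10 loci overlapped another listed gene (0 overlaps) and no value is split by exon, intron or UTR.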

How the data were processed

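Shoot RNA of 9 samples, 3 pools for each of 3 exposures, was sequenced by the authors. The authors deposited FPKM values per the file headers, as 1 value per gene and exposure. TopHat, Bowtie, Cufflinks and the TAIR9 build are named in the submitters' processing notes; versions, the way pools were combined, strand handling and depth have no entry in those notes or the labels. Such an estimator divides reads that match several copies, so values of close copies are uncertain.

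Column names gave the exposure of each of the 3 columns, with 0 columns left unmapped. For each comparison log2((x + 1)/(y + 1)) was computed with a pseudocount of 1 FPKM, which understates differences of low genes. Background shares cover the 13946 genes averaging 5 FPKM or more, and 1.5-fold is the limit for a count. limma was planned only for values per pool and was not run. The ratio step was tested on simulated data.

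The members and lists were chosen with earlier results of these data known. Named are all members, the highest and lowest gene of each other list with a mean of at least 5 FPKM against 0 s, and the 3 genes nearest to the member of highest ratio at 60 s; further genes of the lists were named after their values were seen. Of 81 list entries, 72 matched a RefSeq symbol or synonym and 9 were kept by locus code. All 10 members matched RefSeq TAIR10.1 by locus code, and sequences were read from its own gene models, never by the table's coordinates. Table starts were shifted by 1 (of 12238 genes with the reference's end, 8829 had its start after adding 1 and 25 as printed). Alternatives were pseudocounts of 0.1, 5 and 0 FPKM, 3 scalings, other minimum levels and a 2-fold limit. Python 3.11.15, pandas 2.3.3, numpy 2.4.6, matplotlib 3.10.9 and mafft 7.526 were used.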

Additional observations from a re-analysis of the deposited data

How the results depend on the processing

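No paired analysis was possible because the table has 1 value per exposure and none per pool, and for the same reason no replicate could be left out. With the 7 members of a mean of at least 10 FPKM, the median log2 ratio at 20 s against 0 s was 0.020 in place of 0.16, 4 members were higher in place of 7, and the median at 60 s against 20 s was 0.17 in place of 0.05. The count of members 1.5-fold apart at 20 s was 0 in place of 4 with a pseudocount of 5 FPKM or a 2-fold limit. At 60 s against 20 s it was 1 (LOX4) in place of 0 with a pseudocount of 0.1 FPKM, median centring, scaling to a common sum, or no pseudocount (an alternative chosen after seeing the data). A larger pseudocount shrinks ratios by construction, most for low values. With 5 FPKM the ratio of AOC1 at 20 s fell just short of the limit (0.5655 against 0.585 on the log2 scale). At 60 s against 0 s AOC1 was the 1 member past 1.5-fold under every alternative run, with a log2 ratio of 0.84 at a pseudocount of 5 FPKM and 1.06 with none. Of 180 recomputed member ratios, 13 moved by over 0.1 on the log2 scale, all under another pseudocount, and 4 changed sign (LOX2 once and AOC4 otherwise, with ratios near 0). The scalings moved the median of all genes by under 0.1. The number of reads behind each value is unknown, so the precision that depth gives could not be stated for any member.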
